A study of Mus musculus with 14 samples.

Results

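The cytosolic ribosomal protein genes were taken as the genes whose symbol on the array begins with Rpl or Rps followed by a digit, together with Rpsa, Rplp0, Rplp1 and Rplp2, leaving out the ribosomal S6 kinases and pseudogenes. The array measured 65 such genes among 13923 named genes. They comprised 22 genes of the small subunit, 37 of the large subunit and 6 paralogues or related genes, namely Rpl3l, Rpl7l1, Rpl36al, Rpl39l, Rps4l and Rps27l. A gene with more than 1 probe (Rpl22 and Rpl27a, so that there were 67 probes) was described by its brightest probe.

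Each cytosolic ribosome is built from a small subunit, which reads the mRNA, and a large subunit, which forms the peptide bond, and every subunit carries 1 copy of most of its proteins. The mRNAs of these proteins belong to the TOP class, which starts with a cytosine followed by a run of pyrimidines, and the mTOR pathway controls their translation as a group. Several of the free proteins also bind Mdm2, the ubiquitin ligase of p53, when ribosome assembly is disturbed.

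The arrays were single-colour CodeLink arrays of right-lung RNA from 4 ventilated jnk1-/- mice, 3 jnk1-/- control mice, 4 ventilated wild-type mice and 3 wild-type control mice, 1 array per animal. All mice were adults, which the paper describes as of C57/BL6 background, with age and sex matched between groups, and all were anesthetized. The paper also describes the jnk1-/- mice as gray and the wild-type mice as black. Whether the genotypes differ at genes other than that of JNK1 was not tested. Ventilated mice received 10 ml/kg for 8 hours with room air, with an hourly injection of the muscle relaxant pancuronium and an hourly inflation of the lungs. Controls were killed directly after anesthesia. The groups thus also differ in the length of anesthesia and in the muscle relaxant, which cannot be told apart from ventilation. The jnk1-/- mice lacked JNK1, a stress-activated MAP kinase, in all tissues, and the wild-type mice were bought from a supplier, so the knockout and the origin of the mice cannot be told apart. One ventilated wild-type array (replicate 2) has a label that spells the strain differently from its 3 companions and was kept in that group. The RNA came from whole lung, in which fewer cells of a type and less RNA per cell cannot be told apart.

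All values are log2 signals brought to a common scale by cyclic loess, which takes out smooth differences between arrays along the range of signal, and differences were tested in limma with p adjusted over 19621 probes and a threshold of 0.05. Between 1.86% and 10.7% of the probes of an array lay at the lowest deposited value, the highest shares being 10.7% and 6.98% on wild-type control replicates 2 and 3. Of 8 listed lung epithelial markers 6 were measured (Ager, Cldn18, Napsa, Sftpa1, Sftpb and Sftpd). Their summed signal lay between 14.60 and 15.48 on the log2 scale on the 14 arrays, so lung tissue was present on every array. This does not show that lung was the only tissue. Markers of skeletal muscle and squamous epithelium, given below, were higher in jnk1-/- controls than in wild-type controls. Ribosomal protein genes have many processed pseudogene copies in the mouse genome. Probe sequences were not used here, so whether a probe also measured such copies was not tested.

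The stretches around the start sites are shown first for the 3 genes of the subunits that passed the test besides Rpl29, for Rps12, whose probe was the brightest of the small subunit, and for the muscle paralogue Rpl3l as a contrast. Sequences are from RefSeq (GRCm38.p6), run from 50 bases before to 30 bases after the annotated start, 5′ to 3′ on the strand of the gene, and have the longest run of pyrimidines in capitals.
Rps2, chr17:24720013-24720092, plus strand: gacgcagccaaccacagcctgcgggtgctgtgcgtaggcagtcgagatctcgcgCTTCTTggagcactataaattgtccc
Rps10, chr17:27635215-27635294, minus strand: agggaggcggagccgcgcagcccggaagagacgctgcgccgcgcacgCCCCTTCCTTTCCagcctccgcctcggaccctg
Rps7, chr12:28635924-28636003, minus strand: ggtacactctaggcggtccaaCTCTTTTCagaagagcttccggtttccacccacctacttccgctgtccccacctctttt
Rps12, chr10:23787180-23787259, minus strand: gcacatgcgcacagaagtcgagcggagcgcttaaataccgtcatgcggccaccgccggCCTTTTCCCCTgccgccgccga
Rpl3l, chr17:24727776-24727855, plus strand: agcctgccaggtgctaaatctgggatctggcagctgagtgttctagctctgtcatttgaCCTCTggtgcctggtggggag
The longest run held 13 bases in Rps10 and began 3 bases before the annotated start, and it held 11 bases in Rps12, 8 in Rps7, 6 in Rps2 and 5 in Rpl3l. In Rps2, Rps12 and Rpl3l it began at base 5, 9 and 10 of the annotated transcript. In Rps7 it began 29 bases before the start and lay wholly outside the annotated transcript. RefSeq start regions were matched for 54 of the 65 genes by symbol, and Rpl29 was among the 11 without one. A run of at least 8 pyrimidines on the strand of the gene stood in this 80-base stretch in 28 of 54 genes (51.9%), where 30.2% of all 27025 promoters held one. A run was counted wherever it lay in the stretch, also before the start, so this is not a count of TOP starts. In the 300-base window, CTTCCG on either strand, the core of ETS factor motifs, was found in 38 of 54 genes (70.4%) against 17.2% of all promoters, and TCTCGCGA in 8 of 54 (14.8%) against 1.1%. TATAAA on either strand was found in 5 of 54 (9.3%) against 14.2%, and AAGATGGC, which lies in YY1 motifs, in 3 of 54 (5.6%) against 2.9%. None of these motifs contains another one. These are matches of letters, not measured sites, and the motifs were chosen after the expression values were known.

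Ribosomal protein probes were among the brightest on the arrays and varied little. Of the 65 genes, 59 had a mean signal among the brightest 10% of all probes (above 9.42), and the median of the genes was 13.21 against 5.77 for all probes. The signal of a probe depends on the probe as well as on the RNA, so the order of genes by signal is not an order of RNA amounts. The median SD between arrays of 1 group was 0.164 for the ribosomal protein genes, against 0.430 for all probes and 0.249 for the brightest 10%, and 51 genes had an SD under 0.3. The 3 brightest probes were those of Rpl37a, Rpl19 and Rps12, with 14.23 to 14.56, 14.05 to 14.45 and 13.88 to 14.60 over the 14 arrays. The 3 dimmest were those of Rpl39l, a paralogue known from testis (6.70 to 8.34), Rps20 (2.64 to 5.65) and Rpl3l (-0.63 to 4.62). The highest deposited value of a ribosomal protein probe was 14.79, close to the highest of any probe, 14.82, and whether the brightest spots were saturated was not tested, since no quality flags were used here.

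**Figure D1:**
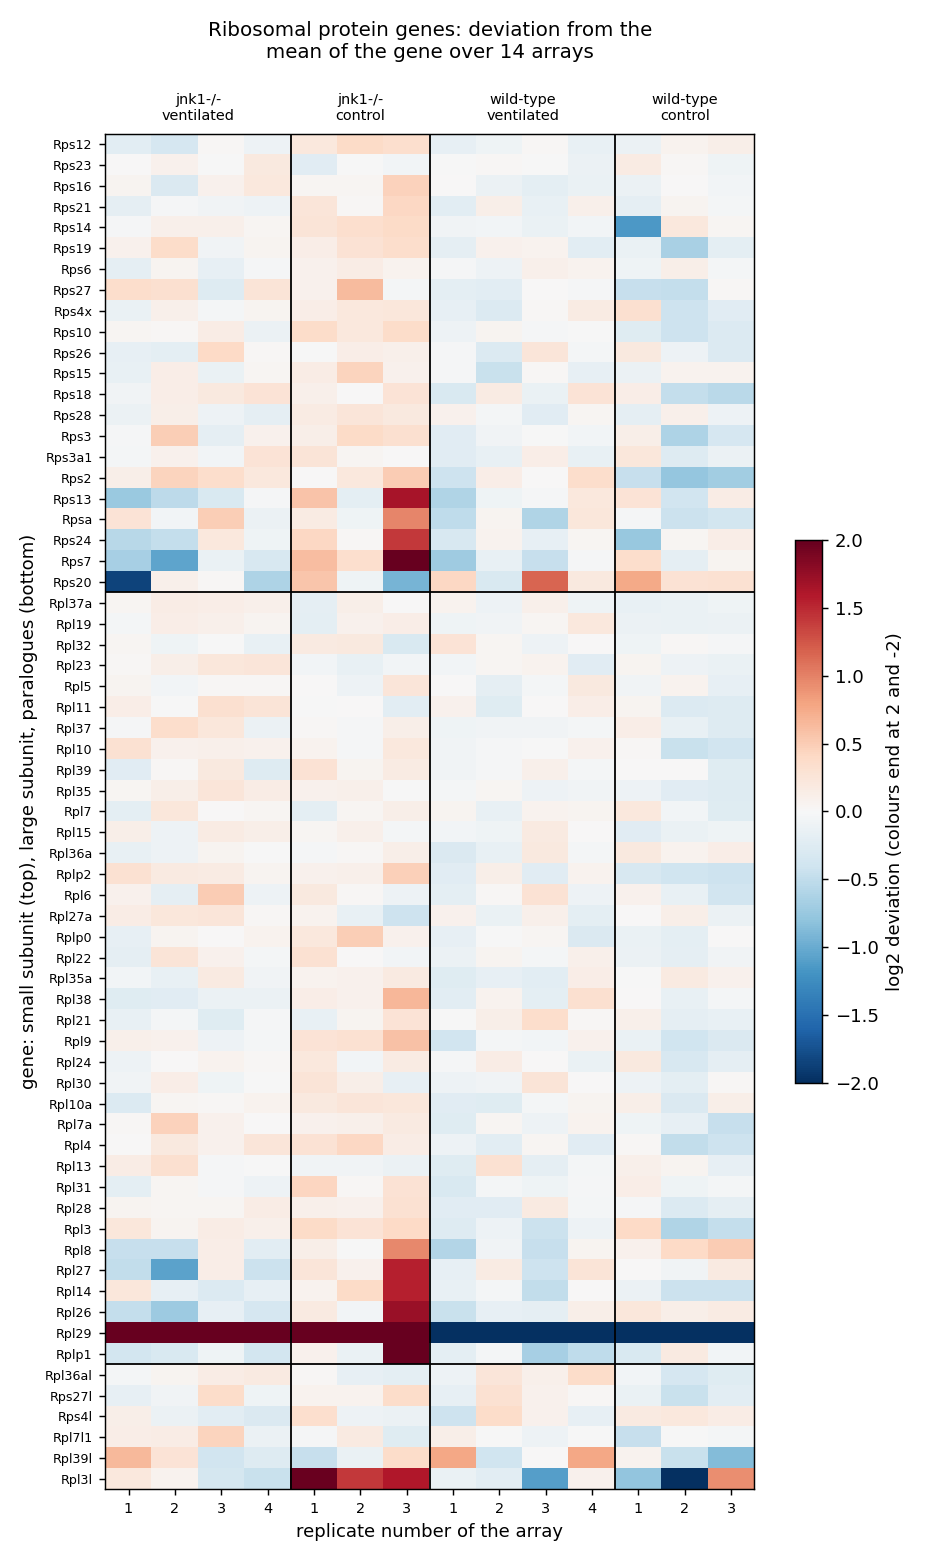
Heat map of 65 ribosomal protein genes (rows, by subunit and then by falling mean signal) on 14 arrays (columns, by group and replicate number). Colours show the log2 deviation from the mean of the gene over all arrays, red higher and blue lower. Rpl29 separates the 7 jnk1-/- arrays from the 7 wild-type arrays, 7 genes stand out on jnk1-/- control replicate 3, and Rpl3l is highest on the 3 jnk1-/- control arrays.

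The comparison of jnk1-/- with wild-type controls asked what the absence of JNK1 goes along with in lungs that were not ventilated. Rpl29, a large-subunit protein also known as a heparan sulfate interacting protein, had a signal 31.5-fold higher in jnk1-/- controls. Rps2, which lies near the mRNA entry of the small subunit, and Rps10, a protein of the small-subunit head, rose by much less, 1.84-fold and 1.54-fold. These 3 of 65 genes passed the test as higher and 0 as lower, where 3.99% of all probes passed in either direction, 2.19% higher and 1.8% lower, and 4.43% of the brightest 10%. At an unadjusted p under 0.05 the number was 16, where 20.9% of all probes and 25.2% of the brightest 10% reached it.

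Rpl29 gave 12.78, 12.09, 13.04 and 13.03 in ventilated jnk1-/- mice, 11.95, 11.87 and 12.47 in jnk1-/- controls, 7.01, 7.17, 7.34 and 6.93 in ventilated wild-type mice and 7.25, 7.46 and 6.64 in wild-type controls. Every jnk1-/- array was thus above every wild-type array, with an empty interval of 4.41 between them, and of 4.15 in the deposited values before normalization. Between controls Rpl29 differed by 4.98 on the log2 scale (standard error 0.30, limma adjusted p = 1.19e-05), the size of which ranked 17 among all 19621 probes in the higher direction. After ventilation the difference was 5.62 (standard error 0.26, adjusted p = 8.22e-07 from limma), with rank 4. The call held in 19 of 19 alternative settings after ventilation and in 17 of 18 between controls, where the methods' t-test gave an adjusted p of 0.139. Between ventilated and control mice of 1 genotype Rpl29 differed by 0.64 in jnk1-/- mice (adjusted p = 0.163 from limma) and by -0.0032 in wild-type mice.

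The genes next to Rpl29 on its chromosome did not show this. Of the 10 nearest measured neighbours, 5 on each side, 0 passed the limma test between controls, with log2 differences from -1.23 to 0.78. After ventilation 1 passed, the phosphatase gene Dusp7 at 0.82 (adjusted p = 0.0307 from limma), and the 10 lay between -0.51 and 0.82. Rpl29 is represented by 1 probe, so no second probe bears on the value.

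Rps2 gave 12.02, 12.23 and 12.52 in jnk1-/- controls and 11.56, 11.24 and 11.32 in wild-type controls, without overlap. The log2 difference was 0.88 (standard error 0.22, adjusted p = 0.0446 from limma). Rps10 gave 13.68, 13.52 and 13.67 in jnk1-/- controls and 13.07, 12.90 and 13.04 in wild-type controls, also without overlap. Its log2 difference was 0.62 (standard error 0.14, adjusted p = 0.0342 from limma). Both calls were close to the threshold and held in 7 of 18 alternative settings each, with log2 differences from 0.43 to 0.998 for Rps2 and from 0.12 to 0.67 for Rps10. Both were lost when any jnk1-/- control array or wild-type control replicate 2 or 3 was left out, with adjusted p from limma of 0.0651 to 0.141 for Rps2 and 0.068 to 0.124 for Rps10. In ventilated mice the differences were 0.26 for Rps2 and 0.05 for Rps10, with adjusted p of 0.682 and 0.940 from limma.

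Over all 65 ribosomal protein genes, these 3 included, the values of jnk1-/- controls lay above those of wild-type controls in most. The log2 difference was positive in 58 of 65 genes, against 11356 of all 19621 probes and 1159 of the 1963 brightest. It had a median of 0.25, against 0.13 for all probes and 0.10 for the brightest 10%. The median was 0.36 for the small subunit and 0.21 for the large subunit. The 3 arrays of each group did not overlap in 25 of 65 genes as higher in jnk1-/- controls and in 0 as lower, where 15.9% and 11.4% of all probes did so. This common shift depended on the scale: its median was 0.12 after quantile normalization, 0.092 in the authors' normalized values and -0.23 when only the array medians were aligned, where the medians of all probes were 0.24, 0.00 and 0.15. The wild-type control arrays 2 and 3, those with the most probes at the lowest value, had ribosomal protein medians of 12.97 and 13.04, against 13.23 on replicate 1 and 13.35 to 13.46 on the jnk1-/- controls. The 6 lung epithelial markers were also higher in jnk1-/- controls, with a median log2 difference of 0.70, 1 past the limma test and sums of 14.98 to 15.45 in jnk1-/- controls and 14.60 to 14.88 in wild-type controls, and their part in the shift was not tested.

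**Figure D2:**
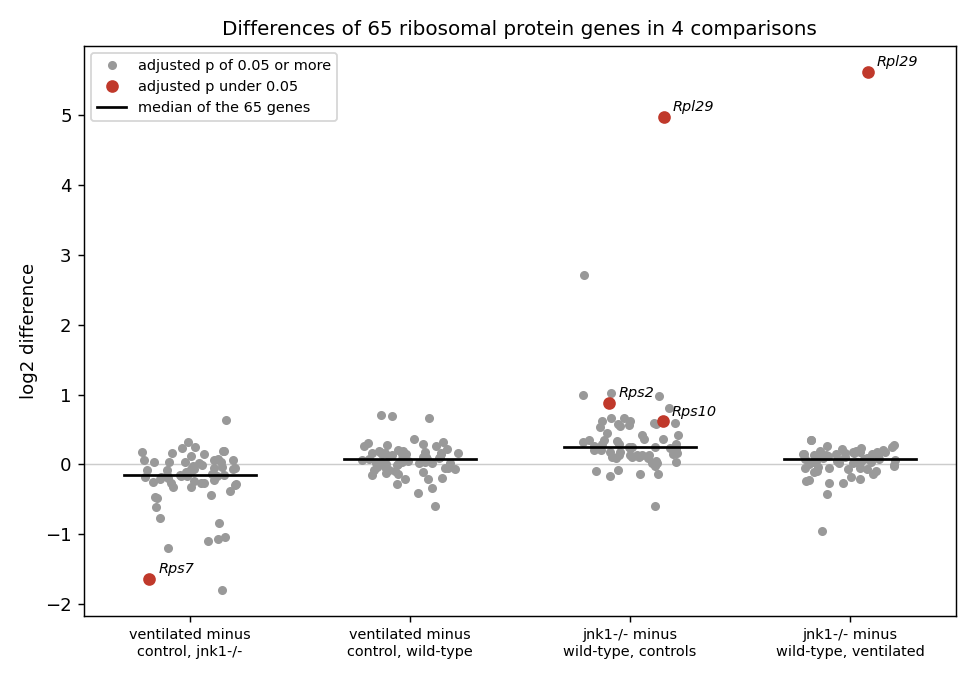
Log2 differences of the 65 ribosomal protein genes (points) in 4 comparisons, with genes past an adjusted p of 0.05 in red and named and the median as a black line. Rpl29 stands at 4.98 and 5.62 in the comparisons of the genotypes, the unnamed point at 2.71 between controls is Rpl3l, and the medians are -0.15, 0.07, 0.25 and 0.07 from left to right.

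Markers of muscle and of squamous epithelium were higher in the jnk1-/- controls. The summed signal of 11 of 12 skeletal muscle markers was 13.14 to 13.65 in jnk1-/- controls and 9.36 to 9.40 in wild-type controls, and 9 of the 11 passed the limma test as higher. For 11 of 12 markers of squamous epithelium it was 12.34 to 13.33 in jnk1-/- controls and 8.95 to 9.41 in wild-type controls, with 8 higher. Of the B cell markers (8 of 9 measured) 1 passed as higher, and the sums overlapped, at 11.03 to 12.24 in jnk1-/- controls and 10.00 to 11.10 in wild-type controls. Of the T and NK cell markers (7 of 9) 0 passed and 1 reached an unadjusted p under 0.05, with sums of 10.00 to 10.43 in jnk1-/- controls and 9.52 to 9.83 in wild-type controls. The part of these markers in the values of the ribosomal protein genes was not tested. In ventilated mice the muscle sum was 8.61 to 8.94 in jnk1-/- mice and 8.69 to 9.29 in wild-type mice.

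Rpl3l, the paralogue of Rpl3 that striated muscle uses, moved in the same direction as the muscle markers. It gave 4.62, 4.06 and 4.24 in jnk1-/- controls and 1.85, -0.63 and 3.56 in wild-type controls, and 2.85, 2.71, 2.28 and 2.19 in ventilated jnk1-/- mice and 2.50, 2.42, 1.53 and 2.71 in ventilated wild-type mice. The jnk1-/- controls were thus above all 11 other arrays. The value of -0.63 is the floor set for low signals, and 10 of the 14 arrays lay at the floor of the authors' own values. Between controls it differed by 2.71 on the log2 scale, with a standard error of 0.77 and a limma adjusted p of 0.0723, and did not pass, but it passed in the authors' normalized values, where it was 0.79. With 1 array left out the difference ran between 1.60 (without wild-type control replicate 2, at the floor) and 3.70 (without wild-type control replicate 3, adjusted p = 0.0121 from limma). Rpl3 itself, which lies next to the peptidyl transferase centre, gave 12.66, 12.55 and 12.67 in jnk1-/- controls and 12.68, 11.67 and 11.81 in wild-type controls, so the groups overlapped through wild-type replicate 1. Without that array the Rpl3 difference was 0.89 with an adjusted p of 0.0159 from limma, against 0.57 and 0.190 with all arrays.

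Between ventilated jnk1-/- and ventilated wild-type mice Rpl29 was the 1 gene of 65 that passed the test, where 0.612% of all probes passed in either direction, and also the 1 gene at an unadjusted p under 0.05, which 10.7% of all probes reached. The other genes lay close together: 63 of 65 differed by less than 0.5 on the log2 scale, and the median was 0.07, against 0.01 for all probes. Its direction turned with the scale, at -0.076 after quantile normalization, -0.13 with only the array medians aligned and -0.055 in the authors' normalized values. Arrays did not overlap in 4 genes as higher in jnk1-/- mice (Rpl29, Rpl10, Rps14 and Rpl3) and in 1 as lower (Rpl21), where 3.88% and 3.05% of all probes did so. Rpl3 gave 12.50, 12.33, 12.42 and 12.38 in ventilated jnk1-/- mice and 12.03, 12.18, 11.86 and 12.18 in ventilated wild-type mice, a log2 difference of 0.35 (95% interval -0.09 to 0.79).

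In jnk1-/- mice the comparison of ventilated with control lungs asked how the genes answered to 8 hours of ventilation without JNK1. Rps7, a small-subunit protein that binds Mdm2, fell, and it was the 1 gene of 65 that passed the test, with 0 higher, where 12.1% of all probes passed in either direction (7.07% higher and 5.06% lower) and 20.1% of the brightest 10%. An unadjusted p under 0.05 was reached by 13 of the 65 genes, 27% of all probes and 40.1% of the brightest 10%. The count of genes that passed was 10 lower and 0 higher in the authors' normalized values, and 5 lower and 0 higher of 64 without dim probes. Of the 65 genes, 55 differed by less than 0.5 on the log2 scale. The median was -0.15, against -0.04 for all probes, with -0.20 for the small and -0.08 for the large subunit. Arrays did not overlap in 15 genes as lower in ventilated mice and in 2 as higher, where 11.2% and 12.5% of all probes did so. This comparison and that of the genotypes in controls share the 3 jnk1-/- control arrays. Markers of other cells fell as well: 9 of 11 of skeletal muscle (median -4.62), 9 of 11 of squamous epithelium (-3.53), 4 of 8 of B cells (-1.39) and 3 of 7 of T and NK cells (-2.38) passed as lower in ventilated jnk1-/- mice, and 0 in these 4 lists as higher. The squamous sum was 9.54 to 10.05 in ventilated and 12.34 to 13.33 in control jnk1-/- mice. In wild-type mice 2 of 8 B cell markers passed as lower (median -0.84) and 0 of 7 T and NK cell markers (-1.36). Of the skeletal muscle markers 0 of 11 passed there (-0.25), and of the squamous markers 1 of 11 passed, as higher (0.40). The part of these markers in the values of the ribosomal protein genes was not tested.

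Rps7 gave 10.47, 10.08, 10.99 and 10.81 in ventilated jnk1-/- mice and 11.75, 11.47 and 13.46 in jnk1-/- controls. All ventilated arrays were below all controls, and control replicate 3 lay far above the other 2. Its log2 difference was -1.64, with a standard error of 0.42 and a limma adjusted p of 0.0260, and it was -1.02 without control replicate 3. The call held in 14 of 18 alternative settings, control replicate 3 left out among them, and was lost without ventilated replicate 1 or 2, where the adjusted p from limma was up to 0.0671, with the arrays of the compared groups alone (0.122) and by the methods' t-test (0.365). In wild-type mice Rps7 gave 10.42, 10.99, 10.68 and 11.11 after ventilation and 11.48, 10.94 and 11.18 in controls, a log2 difference of -0.41 (adjusted p = 0.641 from limma), and the difference between the 2 ventilation effects was -1.23 (adjusted p = 0.397 from limma).

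Control replicate 3 of the jnk1-/- mice set the size of several differences. On this array 7 genes were more than 1 log2 unit above the mean of the other 2 arrays of the group, and all 7 were higher there than on every other array: Rplp1 by 2.81, Rps7 by 1.85, Rpl26 by 1.66, Rps13 by 1.47, Rpl27 by 1.39, Rpl14 by 1.33 and Rps24 by 1.19 (the last 4 genes are named because of these values). That is 10.8% of the ribosomal protein genes, against 12.4% of all probes and 5.30% of the brightest 10% on the same array. Rplp1, an acidic protein of the stalk that recruits elongation factors, gave 8.19, 8.26, 8.48 and 8.20 in ventilated jnk1-/- mice and 8.65, 8.42 and 11.35 in jnk1-/- controls. Its ventilation difference was -1.19 with all arrays and -0.25 without replicate 3. The difference of Rpl26, a large-subunit protein that binds p53 mRNA, was -1.04 and -0.49, and those of the other 4 genes were -1.09 to -0.76 with all arrays and -0.62 to -0.32 without it. The array median before normalization was 0.31 higher on replicate 3 than on the mean of replicates 1 and 2, and its part in these values was not tested.

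**Figure D3:**
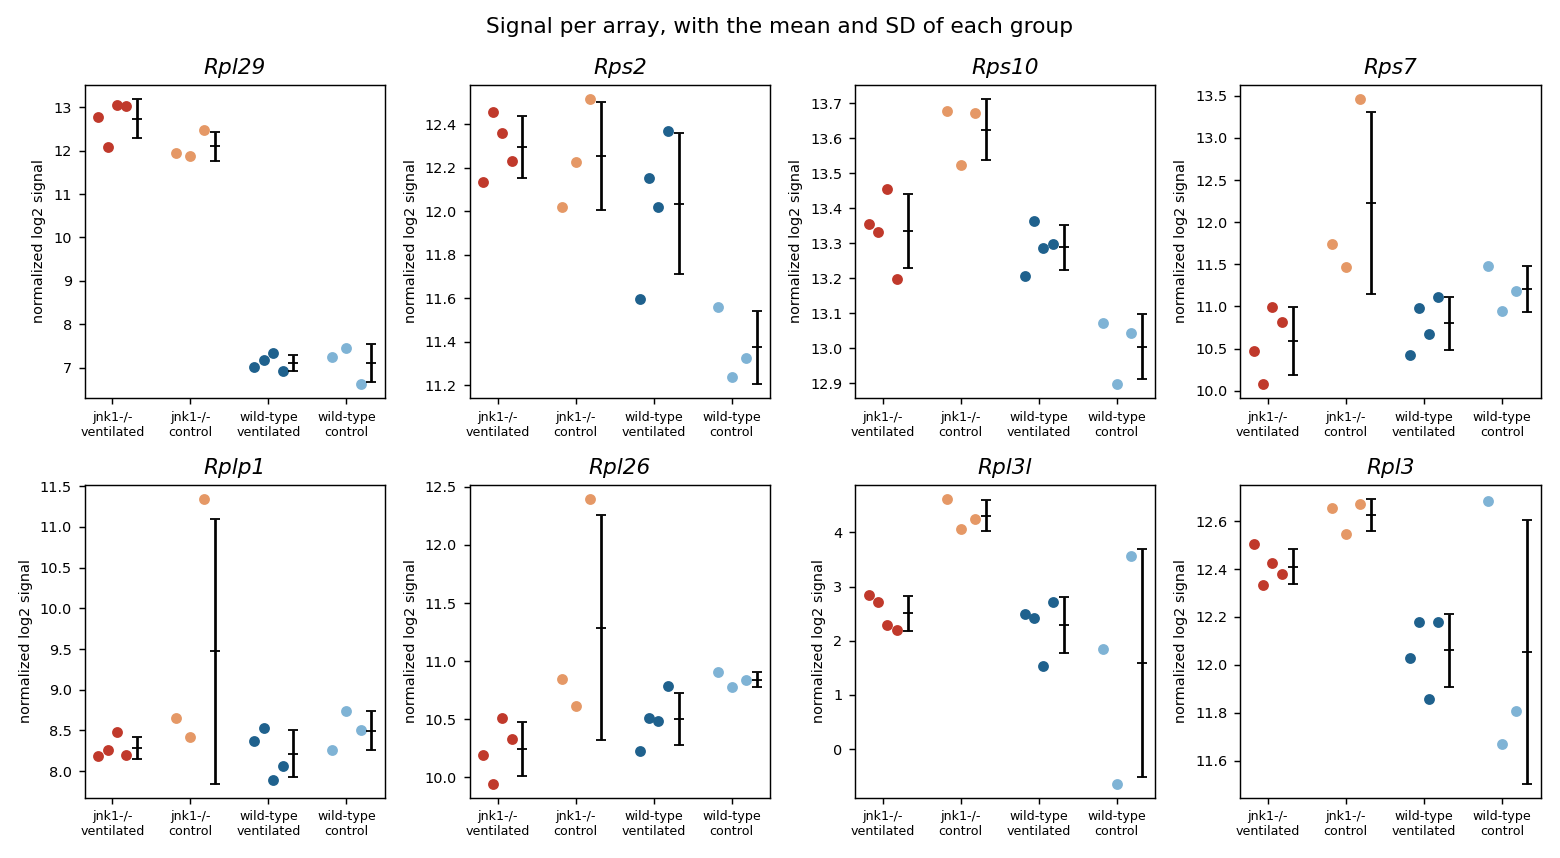
Normalized log2 signal of 8 ribosomal protein genes on each array (points) with the mean and SD of each group (bars), for 4 ventilated jnk1-/-, 3 jnk1-/- control, 4 ventilated wild-type and 3 wild-type control mice; the axes differ between genes and do not start at 0. Rpl29 is above 11.8 on all jnk1-/- arrays and below 7.5 on all wild-type arrays, and Rps7, Rplp1 and Rpl26 each have 1 jnk1-/- control array far above the rest.

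In wild-type mice 0 of the 65 genes passed the limma test after ventilation, 3 reached an unadjusted p under 0.05 (as did 20.2% of all probes and 23.3% of the brightest 10%) and 0 passed by the methods' t-test, where 3.58% of all probes passed by limma in either direction (2.32% higher, 1.26% lower) and 5.2% of the brightest 10%. Of the 65 genes, 61 differed by less than 0.5 on the log2 scale, and the median was 0.07, against 0.11 for all probes. It was -0.14 with only the array medians aligned and -0.061 in the authors' normalized values, so its direction depended on the scale. Arrays did not overlap in 5 genes as higher in ventilated mice (Rpl19, Rpl35, Rplp2, Rps10 and Rps2) and in 1 as lower (Rpl8), where 12.5% and 9.57% of all probes did so. Rps2 gave 11.60, 12.15, 12.02 and 12.37 in ventilated mice and 11.56, 11.24 and 11.32 in controls. Its log2 difference was 0.66 (95% interval 0.22 to 1.11, adjusted p = 0.0933 from limma). The difference between the ventilation effects of the 2 genotypes passed for 0 of 65 genes by limma, where 0.398% of all probes passed (0.189% higher and 0.209% lower), and 3 reached an unadjusted p under 0.05, Rps10, Rpl9 and Rpl3l, where 13.2% of all probes did so. For Rps10 the effect was -0.29 in jnk1-/- mice and 0.28 in wild-type mice, and the difference was -0.57 (95% interval -0.98 to -0.16, adjusted p = 0.230 from limma).

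None of the other small-subunit genes described here, Rps6, Rps19, Rpsa and Rps14, passed the limma test in a comparison. Rps6, the substrate of the S6 kinases, had log2 differences from -0.18 to 0.11 in the 4 comparisons of groups. Rps19, the gene most often mutated in Diamond-Blackfan anaemia in humans, gave 13.91, 14.07 and 14.14 in jnk1-/- controls and 13.66, 13.14 and 13.59 in wild-type controls, a log2 difference of 0.58 (adjusted p = 0.114 from limma). Rpsa, also known as a laminin receptor, differed by 0.63 between controls (adjusted p = 0.277 from limma) and gave 12.75 on jnk1-/- control replicate 3, against 11.94 and 11.69 on the others. Rps14 gave 12.73 on wild-type control replicate 1 and at least 13.74 on the 13 other arrays.

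Of the stalk proteins, Rplp0, the anchor, and Rplp2, the partner of Rplp1, showed no overlap between jnk1-/- and wild-type controls. The same held, as higher in jnk1-/- controls, for 25 of all 65 genes and 15.9% of all probes. Rplp2 gave 13.79, 13.81 and 14.18 in jnk1-/- controls and 13.39, 13.31 and 13.29 in wild-type controls, a log2 difference of 0.60 (adjusted p = 0.0743 from limma). Rplp0 gave 13.78, 14.06 and 13.66 in jnk1-/- controls and 13.44, 13.38 and 13.57 in wild-type controls, a log2 difference of 0.37 (adjusted p = 0.229 from limma). After ventilation the 3 stalk genes differed between the genotypes by 0.07 to 0.24, and 0 passed the limma test in any comparison, with 2 at an unadjusted p under 0.05 between controls (20.9% of all probes) and 1 after ventilation in jnk1-/- mice (27% of all probes).

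Of the 8 genes whose proteins are known to act on Mdm2 or p53 (Rpl5, Rpl11, Rpl23, Rpl26, Rps7, Rps3, Rps14 and Rps27l), 1 fell after ventilation in jnk1-/- mice, Rps7, where 5.06% of all probes fell, and 0 changed in the other comparisons by limma, where 3 reached an unadjusted p under 0.05 between controls (20.9% of all probes) and 0 elsewhere. Rpl5 and Rpl11, which bind Mdm2 together with the 5S rRNA, differed by -0.03 and 0.24 after ventilation in jnk1-/- mice and by 0.05 and 0.15 in wild-type mice. Rps27l, a p53-induced paralogue of Rps27, differed by -0.15 in jnk1-/- mice and 0.32 in wild-type mice, and neither passed. Of the other paralogues, Rpl7l1, Rpl36al, Rpl39l and Rps4l had log2 differences between -0.22 and 0.71 in the 4 comparisons of groups, and none passed.

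Other genes of translation were taken as 5 lists. Of 41 measured ribosome biogenesis genes, 13 rose after ventilation in jnk1-/- mice and 0 fell, with a median of 0.53, where 7.07% of all probes rose and 5.06% fell. The largest rises were those of Myc, a transcription factor that drives ribosome production (1.97), Nop58, a core protein of box C/D snoRNPs (1.79), and Rrs1, which acts in the assembly of the large subunit (1.78). In wild-type mice 1 of 41 rose, Myc by 2.01, with a median of 0.44, where 2.32% of all probes rose. Myc gave 7.34, 6.86, 6.86 and 7.52 in ventilated jnk1-/- mice and 5.21, 5.50 and 4.80 in jnk1-/- controls, and 5.47, 6.32, 6.55 and 6.52 in ventilated wild-type mice and 3.75, 4.34 and 4.53 in wild-type controls. No difference between the 2 ventilation effects passed in this list, so the lower count in wild-type mice is not shown to be a difference between the genotypes. Neutrophil markers also rose after ventilation, 6 of 11 measured in jnk1-/- mice (1 fell) and 7 of 11 in wild-type mice. Their summed signal was 13.57 to 15.02 in ventilated and 11.04 to 11.27 in control jnk1-/- mice, and 14.25 to 14.98 in ventilated and 11.59 to 12.24 in control wild-type mice, and their part in the values of the biogenesis genes was not tested.

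Of 31 initiation factors, 7 rose after ventilation in jnk1-/- mice (7.07% of all probes) and 0 fell, led by Eif4ebp1, the inhibitor of the cap-binding protein (1.22), Eif5 (1.13) and Eif3j1 (1.03). In wild-type mice 2 of 31 rose (2.32% of all probes), Eif4ebp1 (1.05) and Eif2s2, a subunit of eIF2 (0.95). Of 13 elongation and termination factors, the release factor gene Etf1 rose in jnk1-/- mice (0.78), 1 gene of 13 being near the 7.07% of all probes. Of 67 mitochondrial ribosomal protein genes, 6 fell in jnk1-/- mice (5.06% of all probes) and 0 rose, led by Mrpl36 (-1.69), Mrpl14 (-1.10) and Mrpl2 (-0.77), and 0 passed in wild-type mice, where 10 reached an unadjusted p under 0.05, as did 20.2% of all probes. The list of 20 other TOP mRNAs had medians of -0.01 in jnk1-/- and 0.08 in wild-type mice, and 1 of the 20 fell in jnk1-/- mice, Naca, a subunit of the nascent polypeptide-associated complex (-1.12), near the 5.06% of all probes.

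**Figure D4:**
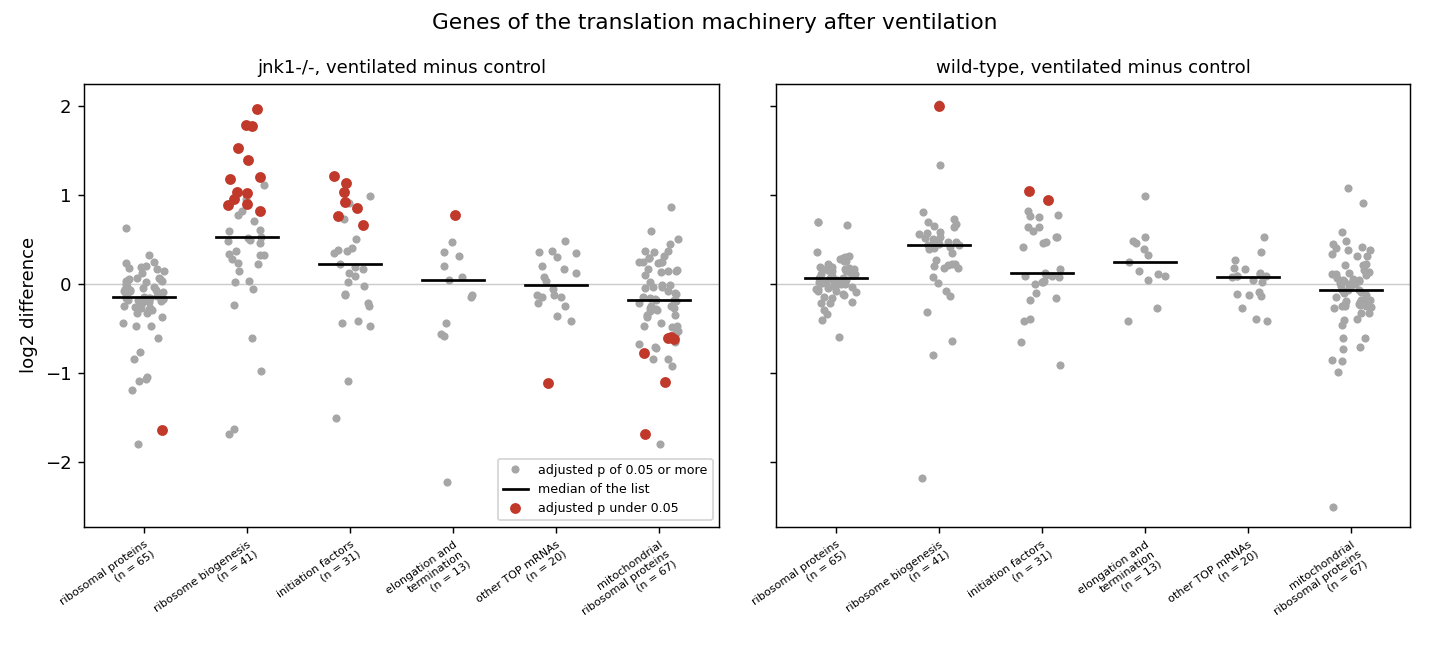
Log2 differences between ventilated and control mice, jnk1-/- on the left and wild-type on the right, for the genes (points) of 6 lists, with genes past an adjusted p of 0.05 in red and the median of each list as a black line. The medians of the ribosomal protein genes are -0.15 and 0.07 and those of the biogenesis genes 0.53 and 0.44.

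Between the genotypes, 2 genes of these lists passed in controls, both as higher in jnk1-/- mice. They were 1 of 31 initiation factors and 1 of 20 other TOP mRNAs, where 2.19% of all probes passed as higher and 1.8% as lower. Eif6, which keeps free large subunits from joining small ones, gave 9.32, 9.61, 10.06 and 9.83 in ventilated jnk1-/- mice, 8.96, 8.95 and 9.22 in jnk1-/- controls, 7.83, 8.24, 8.09 and 7.92 in ventilated wild-type mice and 7.38, 7.25 and 7.16 in wild-type controls. All 7 jnk1-/- arrays were above all 7 wild-type arrays, as for Rpl29. The log2 difference was 1.78 in controls and 1.69 after ventilation, and both passed the limma test. Naca was higher by 1.21 in jnk1-/- controls, and after ventilation Nop58 was higher by 1.53 and Mrpl55 lower at -0.76 in jnk1-/- mice. After ventilation Eif6, Nop58 and Mrpl55 were each the 1 gene that passed in their lists of 31, 41 and 67 genes. Of all probes, 0.306% passed there as higher and 0.306% as lower. Fau, which encodes Rps30 in a fusion protein and does not fall under the naming rule, differed by 0.40 between controls and by 0.07 between ventilated mice and did not pass.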

How the data were processed

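Lung RNA of 14 mice was measured on CodeLink arrays. Per array the authors deposited unscaled log2 intensities of 19621 probes. They also deposited log2 values after their own cyclic loess normalization, of which 24.5% lie at a floor of 3.12. Of the probes, 15353 name 1 gene, 91 several and 4177 none; probes naming several genes were left out of the gene lists. The deposited values were normalized in R 4.3.3 by cyclic loess over 91 pairs of arrays (span 0.7, 3 cycles, lowest values left out of the curves), and signals below percentile 1 were raised to that level (-0.63). A limma 3.58.1 model with 1 mean per group (lmFit, eBayes) gave the contrasts, and p-values were adjusted by Benjamini-Hochberg across the 19621 probes. The number of arrays limits the precision, and p-values rest on the spread between these arrays. In limma the spread of each probe is drawn partly toward a value common to all probes. Ribosomal protein genes varied little (median SD 0.164 against 0.430 for all probes), so many got larger standard errors than their own spread gives. What this did to the counts of genes that passed was not tested. The normalization and the limma test were run on simulated data with independent values per probe, smooth array distortions and added changes of known size. Genes high on a single array, values at the floor and shifts shared by many genes were not simulated. Figures were drawn in matplotlib with Python 3.11.15.

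The genes, lists and tests were chosen with earlier results of these data known. Named genes are those past the threshold (at most 6 per direction and comparison), the 3 brightest and 3 dimmest, the paralogues, stalk and p53-related genes, Rpsa, Rps6, Rps19, Rps2 and Rpl3, and up to 3 per pathway list and direction; genes outside this rule were named after their values were seen. Same-numbered arrays of different groups did not deviate together, so no sign of pairing by number was seen, which does not exclude it. Alternatives covered the normalization, value table, floor, dim probes, test, arrays in the fit, array weights, block, probes of a gene and replicates left out. No quality flags were used, since the files hold none that could be applied, and the sequences come from RefSeq (GRCm38.p6).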

Additional observations from a re-analysis of the deposited data

Results flagged for a closer look

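Of 56 groups of 4 arrays from ventilated mice tested for a value standing apart, 1 was found, where chance would find about 1 in 20. Rps27l gave 11.36 on ventilated jnk1-/- replicate 3, against 10.92 on the next array, a gap of 0.835 of the range of the group. Without this array its log2 difference between ventilated and control jnk1-/- mice was -0.27, against -0.15 with it, and neither passed the limma test.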

How the results depend on the processing

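Rpl29 kept its direction in all settings. After ventilation in jnk1-/- mice the number of genes that passed was 1 with the settings of the report, 2 with quantile normalization, with curves fitted without ribosomal protein probes, without a floor and with array weights, 5 (of 64) without dim probes, 10 in the authors' normalized values and 0 by the methods' t-test (11 unadjusted). Between controls it was 3, and 1 with quantile normalization, 1 with the arrays of the compared groups alone, 6 in the authors' values, 7 with array weights and 0 by the methods' t-test (10 unadjusted). In wild-type mice it was 0, and 1 with array weights (Rps2) and 1 without wild-type control replicates 2 and 3 together (Rps14), a setting chosen after seeing the data. For the difference of the effects it was 0, and 2 in the authors' values (Rpl3l and Rps10). Leaving out 1 array at a time gave 0 to 3 in jnk1-/- mice, 1 to 5 between controls, 1 to 1 between ventilated mice, and 0 to 0 in wild-type mice and for the difference. The counts of 3 came without jnk1-/- control replicate 2 and without ventilated jnk1-/- replicate 3, and the counts of 0 without ventilated jnk1-/- replicate 1 and without replicate 2. Between controls the count was 5 without wild-type control replicate 1, 2 without replicate 3 (Rpl29 and Rpl3l), and 1 without replicate 2 or any 1 jnk1-/- control array.

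The median of the genes between controls was 0.25, and 0.12 with quantile normalization, -0.23 with median centring and 0.092 in the authors' values. Between ventilated mice it was 0.07, and -0.076, -0.13 and -0.055 under the same 3 settings. After ventilation in wild-type mice it was 0.07, and -0.14 with median centring, -0.061 in the authors' values and -0.032 without wild-type control replicates 2 and 3. For the difference of the effects it was -0.20, and 0.074 with median centring and -0.10 without those replicates. With 1 array left out, the medians ranged over -0.14 to -0.10 (ventilation in jnk1-/- mice), 0.03 to 0.11 (in wild-type mice), 0.23 to 0.30 (controls), 0.03 to 0.10 (ventilated mice) and -0.24 to -0.16 (difference). The cause of these shifts was not tested.

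With the replicate number as a block, 1 gene passed between controls (Rpl29), against 3 without it, and the block changed no other count. The correlation of deviations over 19 same-numbered pairs of arrays was -0.047 to 0.075, and 0 of them were over 0.1. For the other pairs it was -0.066 to 0.099. This gave no sign of pairing, which so few arrays cannot exclude. Of the single genes named, 26 values that had not passed did so under an alternative, 27 that had passed no longer did, and 2588 stayed on their side of the threshold.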

Other observations

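The second probes of 2 genes did not follow the first in every comparison. The second Rpl27a probe gave 13.08, 12.89 and 13.67 in jnk1-/- controls and 12.76, 12.62 and 12.63 in wild-type controls, without overlap, while the brighter probe gave 13.70, 13.49 and 13.22 in jnk1-/- controls and 13.64, 13.75 and 13.51 in wild-type controls. The second Rpl22 probe gave 8.68, 8.84, 8.58 and 8.42 in ventilated wild-type mice and 8.86, 9.38 and 9.37 in wild-type controls, a log2 difference of -0.57 that did not pass the limma test (adjusted p = 0.105), while the brighter probe differed by 0.13.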
